A study of Mus musculus with 2 samples.

Results

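The 9 genes described here encode adhesion proteins of the synapse: the neurexins Nrxn2 and Nrxn3, the neuroligins Nlgn1, Nlgn2 and Nlgn3, and the leucine-rich repeat transmembrane (LRRTM) proteins Lrrtm1, Lrrtm2, Lrrtm3 and Lrrtm4. They were chosen by name, and they are 9 of the 21938 protein-coding genes that the GENCODE M21 annotation places on mm10, the mouse genome build of the files. The data are DNase-seq, which maps accessible chromatin by where the enzyme DNase I cuts DNA, in hippocampus of male B6CASTF1/J mice at 14 days of age. These animals are first-generation hybrids and carry a CAST genome beside the C57BL/6J genome that the reference represents. The study held 2 biological replicates of this single tissue and no other condition. A label of the samples lists 3 males and both replicates carry the same donor label, so the difference between the replicates may be partly technical. The tissue is labelled a layer of the hippocampus, and the labels do not say which one.

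Neurexins sit mainly on the presynaptic side, and neuroligins and LRRTMs are postsynaptic partners that bind them across the cleft. Each neurexin gene makes a long alpha form from an upstream promoter and a shorter beta form, with the same membrane anchor, from a promoter inside the gene. Among the neuroligins, Nlgn1 is best known at excitatory synapses, Nlgn2 at inhibitory synapses and Nlgn3 at both, and LRRTMs are known as organisers of excitatory synapses.

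Each replicate came with its own list of peaks, the stretches called accessible, and with its own list of footprints, the short protected stretches inside accessible DNA. Replicate 1 had 115072 peaks and replicate 2 had 95711. Each peak carries a value from the authors whose unit and scaling between libraries are not stated, so values were ranked within a replicate. Across genes open at a promoter in both replicates, the value in replicate 2 was a median of 1.26 times that in replicate 1, with 90% of genes, from the 5th to the 95th percentile, between 0.955 and 1.57 times. The tissue label was checked by marker promoters: all 4 neuronal and all 4 glutamatergic markers had a peak there in each replicate. The counts were 2 of 4 each for GABAergic interneurons, astrocytes and the oligodendrocyte lineage, 1 of 4 for microglia and 0 of 4 for endothelium. Of 4 markers of other tissues, 1 had one, the albumin gene Alb, at 0.156 in replicate 1 and 0.220 in replicate 2. For the whole protein-coding set the share open in both was 64.3%, so lists of 4 markers tell cell types apart only weakly. The values also overlapped between lists, with some astrocyte markers above some glutamatergic ones in both replicates.

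The promoter stretches that carry the results below are shown for the alpha and beta promoters of both neurexins, which can be compared within a gene, for the neuroligin promoters with the widest footprint and the highest peak, and for 2 LRRTM genes. Each is the stretch of 100 bases that lay inside peaks of both replicates and had the most bases under footprints of both. Capitals mark those bases, and the letters are the mm10 reference read along the strand of the gene.
Nrxn2 alpha promoter, chr19:6418654-6418753, plus strand: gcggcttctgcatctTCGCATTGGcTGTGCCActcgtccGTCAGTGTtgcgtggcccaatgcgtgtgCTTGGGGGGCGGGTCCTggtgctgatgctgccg
Nrxn2 beta promoter, chr19:6497328-6497427, plus strand: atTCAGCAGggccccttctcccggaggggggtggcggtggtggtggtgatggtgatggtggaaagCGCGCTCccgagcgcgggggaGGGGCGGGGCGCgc
Nrxn3 alpha promoter, chr12:88722839-88722938, plus strand: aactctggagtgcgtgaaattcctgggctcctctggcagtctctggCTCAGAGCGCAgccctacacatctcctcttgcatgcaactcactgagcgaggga
Nrxn3 beta promoter, chr12:89812226-89812325, plus strand: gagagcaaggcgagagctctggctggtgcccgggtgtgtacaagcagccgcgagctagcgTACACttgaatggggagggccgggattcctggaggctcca
Nlgn1 promoter 2, chr3:26153998-26154097, minus strand: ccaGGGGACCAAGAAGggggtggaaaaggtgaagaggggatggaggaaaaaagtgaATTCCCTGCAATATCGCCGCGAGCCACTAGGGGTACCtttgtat
Nlgn2 promoter 1, chr11:69838066-69838165, minus strand: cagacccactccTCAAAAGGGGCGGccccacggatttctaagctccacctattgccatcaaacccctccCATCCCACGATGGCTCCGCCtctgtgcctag
Lrrtm1 promoter, chr6:77243022-77243121, plus strand: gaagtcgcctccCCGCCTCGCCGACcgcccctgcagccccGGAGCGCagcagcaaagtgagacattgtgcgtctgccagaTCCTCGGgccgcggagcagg
Lrrtm3 promoter, chr10:64090138-64090237, minus strand: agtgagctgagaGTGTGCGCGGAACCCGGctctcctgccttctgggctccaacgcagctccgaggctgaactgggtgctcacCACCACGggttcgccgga
The number of bases in capitals was 41 at the Nrxn2 alpha promoter and 26 at its beta promoter, 11 and 5 at the same promoters of Nrxn3, 50 at Nlgn1, 33 at Nlgn2, 27 at Lrrtm1 and 24 at Lrrtm3. Over the 13 member promoters where such a stretch could be placed the median was 24 bases, against 26 bases over 12572 promoters of other protein-coding genes. Their median GC content was 64% at the members and 66% at the others.

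A peak lay at a promoter of all 9 genes in both replicates, where a promoter is 1000 bp either side of any annotated transcript start. Among all protein-coding genes the share was 64.3%. Most of these peaks were of modest height. The median over the 9 genes was 1.68 in replicate 1 and 1.78 in replicate 2, against 2.45 and 3.11 over the 14574 and 14438 protein-coding genes with a promoter peak in that replicate. Only Nrxn2 and Nlgn2 stood above those all-gene medians, and they did so in both replicates. In bulk tissue, a site open in fewer cells and a site less open in each cell cannot be told apart. With 1 group and 2 replicates no test was run on these values.

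**Figure D1:**
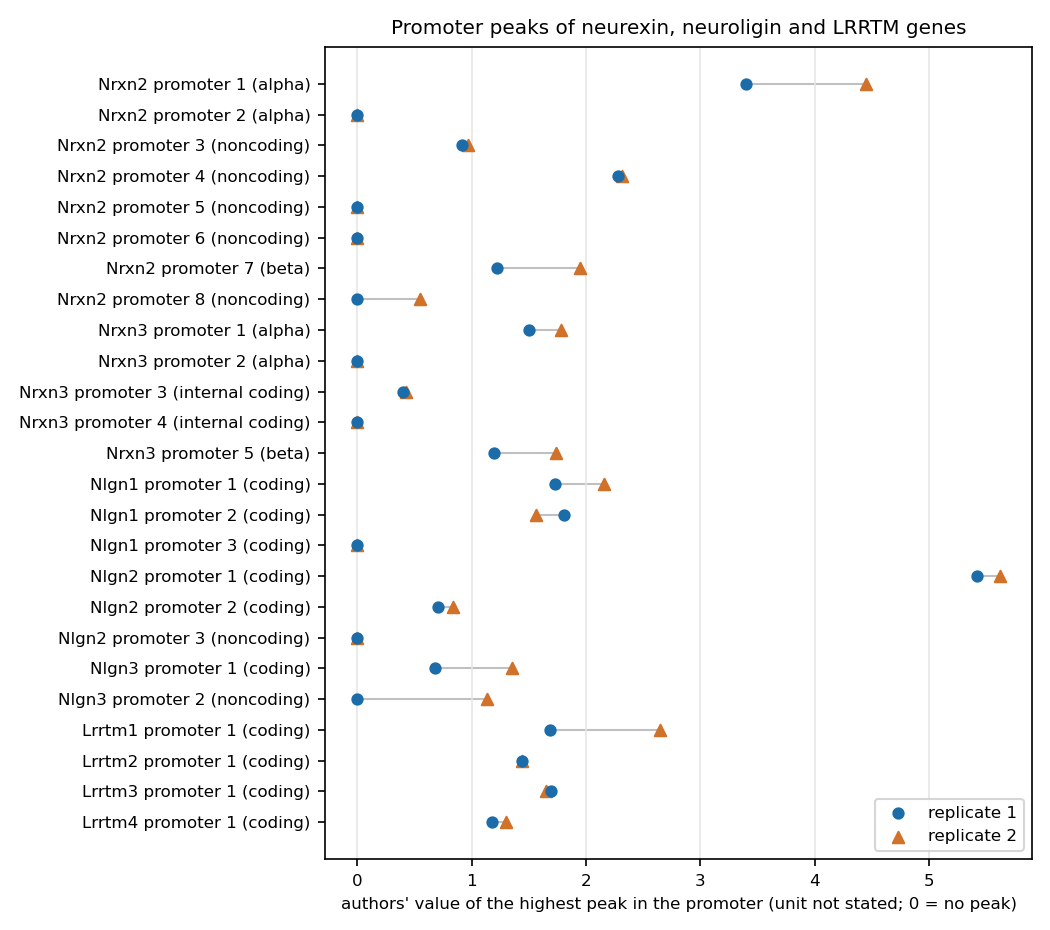
Authors' value of the highest peak in each annotated promoter of the 9 genes, in replicate 1 (circles) and replicate 2 (triangles), with a grey line joining the replicates and 0 where no peak was listed. Nlgn2 promoter 1 (5.42 and 5.62) and the Nrxn2 alpha promoter (3.40 and 4.45) lie to the right of every other promoter.

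Nrxn2 (chromosome 19, 6418731 to 6544169, plus strand, 125 kb) had its highest promoter peak at the alpha start. The value was 3.40 in replicate 1 and 4.45 in replicate 2, higher than in 67.9% and 70.4% of protein-coding genes with a promoter peak. This peak, of 600 bp and 560 bp, is centred at -210 and -190 bp from the start. In both replicates it also covers the start of Gm14965, a noncoding transcript on the opposite strand, so its value cannot be given to one of the genes. The beta promoter, 78.9 kb into the gene, had 1.22 and 1.95. The alpha peak was thus 2.78 times the beta peak in replicate 1 and 2.28 times in replicate 2, the same order in both libraries. Between them, a promoter of a noncoding transcript 35.8 kb into the gene had 2.28 and 2.32, from a peak at the upstream edge of its window, and another at 26.7 kb had 0.919 and 0.970. A second alpha start at 9.19 kb and noncoding starts at 54.4 and 72.1 kb had no peak in either replicate. The last start, at 98.5 kb, had none in replicate 1 and 0.546 in replicate 2.

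Nrxn3 (chromosome 12, 88722876 to 90334935, plus strand) spans 1612 kb and ranks 11th in length among the protein-coding genes. Its upstream alpha promoter had 1.499 in replicate 1 and 1.78 in replicate 2, higher than in 29.8% and 27.4% of genes. Its beta promoter lies 1090 kb further in and had 1.20 and 1.74. The 2 promoters of Nrxn3 were nearly level, the alpha peak being 1.25 times the beta peak in replicate 1 and 1.02 times in replicate 2. That upstream start is called alpha because a transcript from it, annotated as subject to nonsense-mediated decay, has the start codon of the longest coding sequence. The start of the protein-coding alpha transcript, 71.6 kb in, and an internal coding start at 470 kb had no peak in either replicate, and an internal coding start at 230 kb had only 0.403 and 0.424. Over both neurexins, 7 of 13 promoters had peaks in both replicates, and each gene was open at its most upstream promoter and at its beta promoter. Counting only starts of transcripts annotated as protein-coding, which leaves out the upstream alpha start of Nrxn3, 4 neurexin promoters had one. Of the 16 promoters of the 9 genes that come after the first of their gene, 7 had a peak in both, against 14.7% of 22532 such promoters over all protein-coding genes with several promoters.

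Nlgn2 (chromosome 11, 69823122 to 69837784, minus strand), the neuroligin of inhibitory synapses, had the highest promoter value of the 9 genes. The value was 5.42 in replicate 1 and 5.62 in replicate 2, higher than in 92.4% and 84.3% of genes with a promoter peak. The lowest false discovery rate of the cut rate in this window was 7.05e-52 and 5.96e-38. The peak is centred at -476 and -416 bp from the Nlgn2 start, and the window also holds starts of the divergent gene Tmem256, the first at 69838514. In replicate 1 the peak covers that start, while in replicate 2 it ends at 69838440. Which of the genes the peak belongs to was not tested. Downstream of the Nlgn2 start the highest peak was lower, at 1.05 in replicate 1 (69836641 to 69837520) and 1.30 in replicate 2 (69836701 to 69837280). A second Nlgn2 promoter, 2.94 kb downstream, had 0.707 and 0.840, and a noncoding start at 9.23 kb had none.

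Nlgn1 (chromosome 3, 25426215 to 26332460, minus strand, 906 kb), the neuroligin of excitatory synapses, had open chromatin at 2 of its 3 promoters, 179 kb apart. The first had 1.73 in replicate 1 and 2.16 in replicate 2, in a window that also holds starts of the antisense transcript A830092H15Rik. The other had 1.81 and 1.57. The order of the 2 promoters therefore differed between the replicates, and the highest Nlgn1 value (higher than in 36.5% and 34.1% of genes) comes from a different promoter in each. At the second promoter the highest peaks of the replicates did not overlap. Both replicates had a narrow peak from 26153921, upstream of the start, at 1.81 and 1.44, and both had a wide one across the start, at 1.31 (26152481 to 26153400) and 1.57 (26152521 to 26153320). The third promoter, 199 kb into the gene, had no peak in either replicate.

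Nlgn3 (chromosome X, 101299168 to 101325963, plus strand) had the lowest promoter value of the 9 genes in replicate 1, at 0.679, and 1.35 in replicate 2. It was higher than in 10.7% and 20.04% of genes, and its ratio of 1.99 between replicates lay outside the range that held 90% of genes. The replicate 1 peak was missing from the shorter peak list, so that with the shorter lists 8 of the 9 genes were open at a promoter in both replicates. In these males chromosome X is present as 1 copy, and promoter values on it were lower than on the autosomes, with medians of 1.20 and 1.48 on X against 2.52 and 3.20. Whether copy number accounts for that difference was not tested. Among genes of chromosome X alone, Nlgn3 was higher than 22.6% and 44.7%. A noncoding start 15.2 kb into the gene had no peak in replicate 1 and 1.13 in replicate 2. Accessible sites also lay past its 3′ end. The 3 shared peaks there had 1.89 and 1.68 (101332361 to 101332620), 1.47 and 1.09, and 1.06 and 1.35. The first of them was above the Nlgn3 promoter in both replicates, and the other 2 in replicate 1 only.

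The 4 LRRTM genes each had 1 promoter, open in both replicates. Lrrtm1 (chromosome 6, 77242689 to 77257791, plus strand) had 1.68 in replicate 1 and 2.65 in replicate 2, a ratio of 1.58 that lies just above the range that held 90% of genes. Lrrtm2 (chromosome 18, 35209003 to 35215024, minus strand) had 1.44 in both. Lrrtm3 (chromosome 10, 63928472 to 64090277, minus strand) had 1.69 and 1.65. Lrrtm4 (chromosome 6, 80018877 to 80810143, plus strand, 791 kb) had 1.18 and 1.30 and was the lowest of the 4 in both replicates. Lrrtm1 ranked higher than 33.8% and 42.5% of genes and Lrrtm4 higher than 22.7% and 19.3%. Lrrtm1, Lrrtm2 and Lrrtm3 are nested on the opposite strand inside the alpha-catenin genes Ctnna2, Ctnna1 and Ctnna3, which code for proteins that tie cadherins to the actin cytoskeleton. The Lrrtm2 window also holds starts of Ctnna1, inside the peak of each replicate, so its value cannot be given to one of the genes. The 5′ end of Lrrtm4 overlaps the antisense transcript Gm4409.

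**Figure D2:**
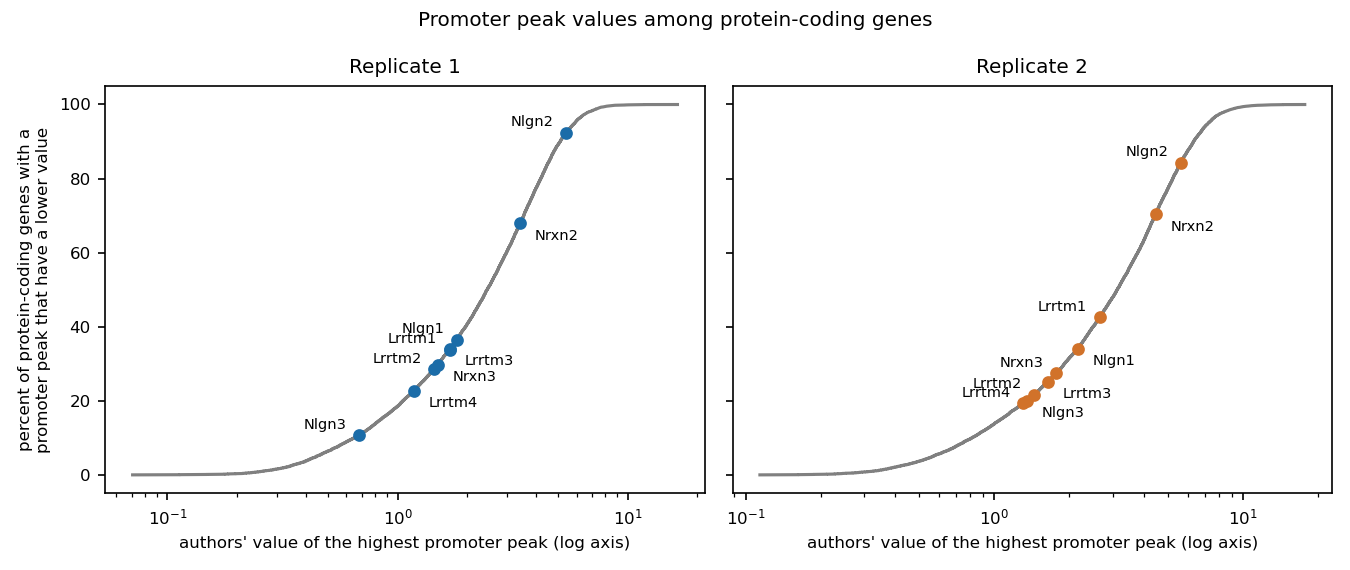
Percent of protein-coding genes with a promoter peak that have a lower value (vertical axis) against the value of that gene's highest promoter peak (horizontal, log axis), for replicate 1 on the left and replicate 2 on the right. The grey curve is all such genes and the points are the 9 genes; Nlgn2 (92.4% and 84.3%) and Nrxn2 (67.9% and 70.4%) stand apart from the other 7, which lie between 10.7% and 42.5%.

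Open chromatin away from start sites was found at 8 of the 9 genes. Peaks were counted over the gene and 10 kb each side, and a replicate 1 peak that overlapped a replicate 2 peak by at least 1 bp was called shared. Nlgn2 had no shared peak away from starts, and no peak in either replicate, while the other 8 genes had from 3 to 24. Over all protein-coding genes 53.5% had at least 1. The 9 genes held 142 such peaks in replicate 1 and 97 in replicate 2, and 77 of those in replicate 1 were shared. Most lay in introns, 118 of 142 and 79 of 97. The shorter peak lists held 35 shared peaks away from starts, and the upper 50% of each list by value held 30.

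Gene length differs widely among the 9, with a median of 125 kb against 17.4 kb over all protein-coding genes, so counts are also given per 100 kb of gene and flank. Pooled over the 9 genes the rate was 2.01 shared peaks per 100 kb, against 2.24 over all protein-coding genes. Apart from Nlgn2, the small and middle-sized genes were densely marked. Lrrtm2 had 4 shared peaks, or 15.4 per 100 kb, Lrrtm1 had 5, or 14.2, Nrxn2 had 13, or 8.94, Nlgn3 had 3, or 6.41, and Lrrtm3 had 11, or 6.05. These rates were higher than those of 99.0%, 98.9%, 95.7%, 90.4% and 89.4% of protein-coding genes in the same order. With overlapping peaks of the same list merged, Nrxn2 had 10 and Lrrtm2 had 3. In the shorter peak lists Lrrtm2 had 3, Lrrtm1 had 2, Nrxn2 had 6, Nlgn3 had 3 and Lrrtm3 had 2. In the upper 50% of each list by value the counts were 2, 1, 13, 3 and 2 in the same order. The 3 peaks of Nlgn3 and 4 of the 13 of Nrxn2 lay in the flanks rather than in the gene. Whether the peaks at the nested LRRTM genes belong to the surrounding catenin genes was not tested. The ranking includes genes with no shared peak away from starts, as only 53.5% of protein-coding genes had at least 1. The 3 longest genes lay near its middle, and so ranked low among the genes with any such peak. Nrxn3 had 24 shared peaks, or 1.47 per 100 kb (higher than 52.6% of genes), Lrrtm4 had 9, or 1.11 (49.8%), and Nlgn1 had 8, or 0.864 (48.3%).

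**Figure D3:**
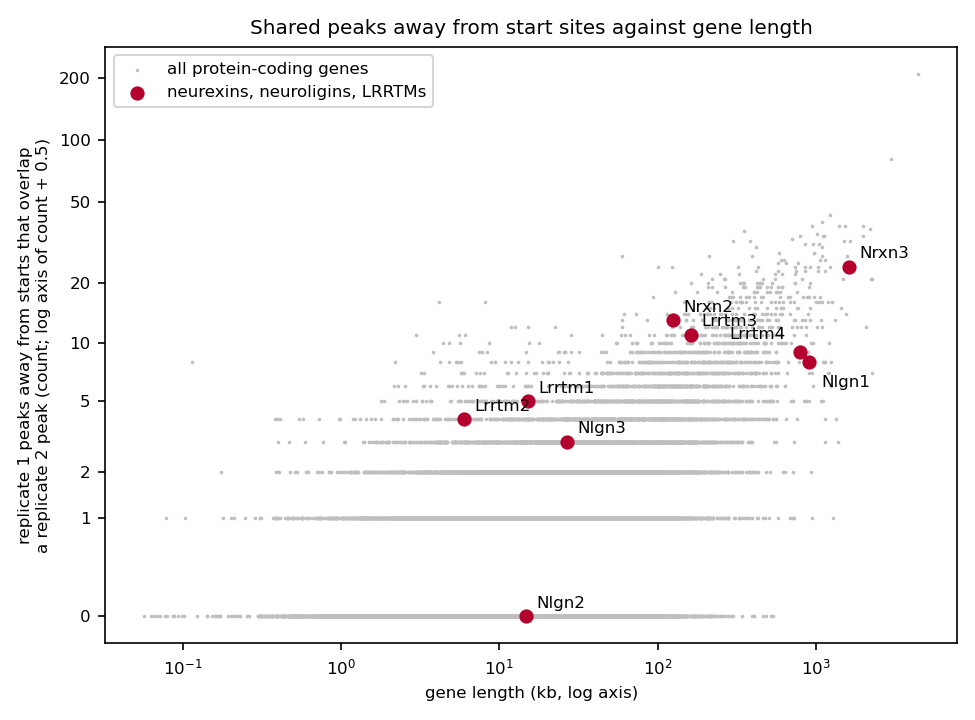
Number of replicate 1 peaks away from starts that overlap a replicate 2 peak, with 0.5 added for the log axis, against gene length in kb on a log axis; each grey point is a protein-coding gene and the red points are the 9 genes. Nrxn3 (24 peaks) and Nrxn2 (13) are the highest of the 9, and Nlgn2 lies at 0.

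Set beside the 3 protein-coding genes nearest to it in length, Nlgn1 with its 8 shared peaks resembled Cntnap5a (903 kb, 8 peaks) and Tenm1 (901 kb, 7 peaks) and had fewer than Dpp6 (910 kb, 17 peaks). All 8 lay downstream of the third promoter, between 199 and 906 kb from the 5′ end, and none in the first 199 kb. The longest stretch of Nlgn1 with no peak in either replicate was its last 168 kb. In Nrxn3 the shared peaks were spread unevenly too. None lay in the first 71.6 kb, 3 between 71.6 and 230 kb, 5 between 230 and 470 kb, 12 between 470 and 1090 kb, the stretch that ends at the beta promoter, and 4 in the 522 kb after it. Per 100 kb this was 1.89, 2.09 and 1.94 in the 3 stretches before the beta promoter and 0.766 after it. In Nrxn2 the 19.5 kb after the beta promoter held 4 shared peaks, of which a pair overlap each other.

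The highest shared sites inside these genes were intronic sites of the neurexins. The intronic peak of Nrxn2 at 6489081 to 6489280, 70.5 kb into the gene, had 2.67 in replicate 1 and 3.13 in replicate 2, above 98.6% and 98.2% of all peaks away from starts. It was higher than the beta promoter in both replicates. In Nrxn3 the peak at 89106301 to 89106660, 384 kb in, had 2.07 and 2.09 (above 96.8% and 94.4%), more than the alpha promoter in both replicates. Nlgn1 had its highest at 25903221 to 25903440, with 1.16 and 2.00. For Lrrtm4 it was the peak at 80622721 to 80623140, with 1.12 and 1.46, near the 1.18 and 1.30 of its promoter. The highest of Lrrtm1 was at 77244661 to 77245260 (1.03 and 1.32), of Lrrtm2 at 35213061 to 35213800 (0.651 and 0.872) and of Lrrtm3 at 64084001 to 64084220 (0.700 and 0.823). The highest site of each gene was taken by the mean of the 2 replicates. In replicate 1 alone the Lrrtm2 peak at 35210561 to 35210860 was higher (0.700, and 0.783 in replicate 2). In replicate 2 alone a peak overlapping that of Lrrtm3 at 64088041 to 64088339 was higher (0.946, and 0.573 in replicate 1). Shared peaks away from starts had a median value of 0.608 in replicate 1 and 0.681 in replicate 2, against 0.325 and 0.383 for those of 1 replicate only.

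In 4 of these intronic sites, 25 to 46 of 100 bases were under footprints of both replicates. Over the 8 genes with such a site the median was 18.5 bases, against 7 over all shared peaks away from starts. The sites of Lrrtm1 and Lrrtm3 with the highest mean value had 0. The 4 sites with the most such bases are shown, each as the 100 bases of the replicate 1 peak with the most such bases, in capitals, along the strand of the gene.
Nrxn2 intronic site, chr19:6489120-6489219, plus strand: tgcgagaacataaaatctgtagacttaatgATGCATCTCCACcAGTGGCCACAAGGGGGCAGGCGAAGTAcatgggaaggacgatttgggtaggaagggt
Nrxn3 intronic site, chr12:89106527-89106626, plus strand: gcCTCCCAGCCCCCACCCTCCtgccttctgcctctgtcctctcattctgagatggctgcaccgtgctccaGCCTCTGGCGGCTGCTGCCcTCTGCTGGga
Nlgn1 intronic site, chr3:25903299-25903398, minus strand: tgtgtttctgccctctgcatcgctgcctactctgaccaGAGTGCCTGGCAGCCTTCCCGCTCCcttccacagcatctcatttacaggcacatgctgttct
Lrrtm4 intronic site, chr6:80622789-80622888, plus strand: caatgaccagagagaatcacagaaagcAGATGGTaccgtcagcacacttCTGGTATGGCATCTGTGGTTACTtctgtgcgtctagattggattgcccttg
The widest footprint was 27 bp in both replicates at the Nrxn2 site and 30 bp in both at the Nrxn3 site. At the Nlgn1 site it was 25 and 29 bp, and at the Lrrtm4 site 27 and 23 bp. The Nrxn2 site holds AGGNGGC, the core of the motif of the insulator protein CTCF, inside its footprint. Over the same kind of stretch in 43937 shared peaks away from starts, 17.97% held this core and 8.50% held it inside bases footprinted in both replicates. The Lrrtm4 site holds CAGATG, an E-box, inside footprints of both, as did 2.14% of those stretches. Since these sites were taken as the highest of each gene, their footprints are not typical of the other sites. The shared peaks away from starts set beside them were of any height, so their median and shares are not a like comparison.

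Over their coding sequence, 3 of the 4 LRRTM genes had a shared peak away from any start, and none of the other 6 genes had one. The share over all protein-coding genes was 8.56%, against 3 of 9 here. Peaks in promoter windows were not counted, which leaves out a shared Nlgn2 peak at its second promoter (69833963 to 69834272, 0.707 and 0.840). That peak covers 291 bp of coding sequence in replicate 1, and the overlapping replicate 2 peak covers 344 bp. LRRTM proteins are encoded mostly by 1 large exon. In Lrrtm1 the peak of 600 bp at 77244661 to 77245260 covers 467 bp of coding sequence, and the overlapping replicate 2 peak of 780 bp covers 687 bp. In Lrrtm2 peaks of 740 bp and 420 bp in replicate 1 (0.651 and 0.530) and of 380 bp and 360 bp in replicate 2 (0.872 and 0.701) lie wholly in coding sequence. Those of replicate 1 overlap each other, and those of replicate 2 do not. Lrrtm3 had 3 such peaks in replicate 1, from 0.396 to 0.573, and 2 in replicate 2, at 0.946 and 0.587. Lrrtm4 had coding peaks away from its start in replicate 1 alone, at 0.276 and 0.290, and the second of them covers a start of another annotated gene. These coding sites were noticed after their values were seen.

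The 9 genes held 402 footprints in replicate 1 and 313 in replicate 2. A footprint covered over at least 50% of its length by one of the other replicate was called shared, which held for 24.6% in replicate 1 (exact 95% binomial interval 20.5 to 29.1%) and 33.2% in replicate 2 (28.0 to 38.7%). Among all footprints the shares were 31.8% and 37.5%. The intervals cover counting error only. Footprints were 2.22 and 2.30 per peak at the 9 genes, against 2.48 and 2.55 in the whole lists. Promoters held 120 and 116 of them. Nlgn2, the gene with the highest promoter, also had the highest shared share, 48.3% of 29 and 60.0% of 25, and 14 and 16 of its footprints lay at promoter 1. Its flank holds a peak at the start of the neighbouring gene Plscr3 (3.49 in replicate 1 and 3.34 in replicate 2). Footprints under that peak, some of them shared, are counted in this share. The lowest shared share in replicate 1 was that of Nrxn3, 15.8% of 114. In replicate 2 it was that of Nlgn3, 17.7% of 17.

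Footprints at the alpha promoter of Nrxn2 numbered 13 in replicate 1 and 12 in replicate 2, of which 7 and 9 were shared and the widest was 33 and 35 bp. The beta promoter had about as many, 10 and 13, but 3 shared in each. At Nrxn3 the alpha promoter had 3 and 1 and the beta promoter 3 and 4, with 1 shared at each in both replicates. The widest promoter footprint of the 9 genes was that of Nlgn1 promoter 2, at 40 bp in replicate 1 and 37 bp in replicate 2, and it makes up the long run of capitals in the sequence of that promoter. Lrrtm1 had 16 and 11 promoter footprints, Lrrtm2 9 and 8, Lrrtm3 4 and 2, and Lrrtm4 5 and 3. Nlgn3 had 1 and 2 at its first promoter, none of them shared. The 7 promoters with no peak in either replicate had no footprint and no base with a listed cut rate.

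Short motifs were searched by their letters on both strands of the 13 promoter stretches. No stretch could be placed at the first promoter of Nlgn3, so no promoter of that gene was searched. The same held for the noncoding promoter of Nrxn2 at 26.7 kb and the internal coding promoter of Nrxn3 at 230.5 kb. GGGCGG, the box bound by Sp and Klf factors, was in 4 of 13, the Nrxn2 alpha and beta promoters, Nlgn2 promoter 1 and Lrrtm1, against 41.2% of the stretches of other promoters. In the first 3 it lay wholly in capitals, against 20.6% of the others. Of the other motifs, TGACGTCA, the cyclic AMP response element, was in the Lrrtm2 stretch inside footprints of both replicates (2.75% of the others held it), AGGNGGC was in 2 stretches (23.2%) and CAGCACC, part of the REST element, was in the Nrxn2 alpha stretch outside the footprints (3.14%). None of the 13 stretches held the motif letters of the activity-regulated factors AP-1 (TGANTCA) and Egr (GCGNGGGCG). The same was true of the housekeeping promoter factors Nrf1 (TGCGCATGC), Ets (CCGGAAG), YY1 (AAGATGGCG) and NFY (CCAATCA). Neither of the E-boxes searched, CAGATG and CAGCTG, which basic helix-loop-helix factors bind, was in any of them. The TATA box (TATAAA) and the letters searched for Pou factors (ATGCAAAT) and Rfx factors (GTTGCC) were not found there either. Each of these absent motifs was also uncommon in the stretches of other promoters, from 0.38% for Pou to 7.8% for Ets. With 13 stretches, the absence of any 1 of them does not set these promoters apart. AGGNGGC and GGGCGG can share letters, and no stretch held both. A match describes letters in these stretches only.

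Known partners of these proteins were open at their promoters almost throughout. Of 30 partner genes, 29 were open at a promoter in both replicates (96.7%, beside the 64.3% of all protein-coding genes). They were 20 of 21 extracellular partners, such as cerebellins, latrophilins and MDGA proteins, and 9 of 9 intracellular ones, such as scaffolds of the Shank family. The exception was Nxph4, a neurexophilin, with no promoter peak in either replicate and 3 shared peaks away from starts. The highest were Apba1, a presynaptic adaptor, with 4.55 in replicate 1 and 5.81 in replicate 2, Adgrl1, a latrophilin, with 3.97 and 5.60, and Dag1, the dystroglycan gene, with 4.05 and 5.52. Among the 9 adhesion genes only Nlgn2 exceeded Adgrl1 and Dag1 in both replicates. Partner genes had a median of 4 shared peaks away from starts and 2.69 per 100 kb, against medians of 8 and 6.05 for the 9 genes, and of 1 and 1.13 over all protein-coding genes. These are medians of rates per gene. Pooled over their length, the 9 genes had 2.01 per 100 kb, below the 2.24 of all protein-coding genes.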

How the data were processed

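DNase-seq libraries of 2 replicates were deposited as separate files, made per library and not pooled. The value per peak deposited by the authors is a signal whose unit and scaling are not stated. The deposited footprint and cut-rate files hold false discovery rates (q-values): 0.01 for every footprint, and cut rates listed only under 0.05. No label or file read here names an aligner or peak caller. The depth in reads is unknown. The longer of 2 peak lists per replicate was used. Peaks and footprints were joined to GENCODE M21 genes in Python 3.11.15 with pandas 2.3.3 and numpy 2.4.6. Promoters were 1000 bp either side of any start, with overlapping windows merged. The alpha promoter of a neurexin starts a transcript, of any annotated type, with the start codon of the longest coding sequence, and the beta promoter has the start codon nearest the 3′ end. A gene's value is its highest promoter peak in each replicate. Sequence was read from RefSeq's GRCm38.p6 genome (mm10), on which 329 of 329 checked RefSeq promoters matched letter for letter. Named genes are the 9 genes, the 3 partners with the highest mean promoter value and any partner without a peak in both, and the 3 genes nearest to Nlgn1 in length. The counting was tested on simulated data. The genes, lists and motifs were chosen with earlier results of these data known.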

Additional observations from a re-analysis of the deposited data

How the results depend on the processing

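Of the 9 genes, 9 were open at a promoter in both replicates under every alternative except the shorter peak lists, where Nlgn3 dropped out and 8 remained. Their promoter values moved by less than the SD of the replicates under each alternative window and list. The largest move was that of Nlgn3, whose mean of 1.02 became 0.677 with the shorter lists, where it has no replicate 1 peak. Peaks away from starts depended most on the list. Their 77 shared peaks became 35 in the shorter lists and 30 in the upper 50% of each list by value, and the median of 8 per gene became 3 and 2. A single replicate held from 97 to 142, with medians from 10 to 16 per gene, and other flanks and a 50% overlap gave 52 to 90. Merging overlapping peaks of 1 list gave 73 and counting replicate 2 peaks gave 74; both were chosen after seeing the data. Neurexin promoters with a peak in both numbered 4 with starts of protein-coding transcripts only, as starts of other transcripts left the count, and 5 to 8 otherwise. The 99 shared footprints of replicate 1 became 11 when the same start and end were required, and 72 to 123 otherwise. The single-replicate totals were 313 to 402. The median promoter value over the 9 genes was 1.67 from the mean of the replicates, and from 1.68 to 1.78 in 1 replicate. Partner genes with a promoter peak in both numbered 27 to 30. No paired analysis was possible because the study has only 1 group. Since read depth is unknown, a site not listed may have been too weak to be called.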
